A study of Homo sapiens with 9 samples.

Results

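Fatty acid oxidation and the peroxisome were examined through 37 genes in HepG2 cells, a human liver cancer line. The 37 genes are grouped here by function, and they were listed with earlier results of these data known: 17 act in the mitochondrial pathway, 10 are peroxisomal enzymes or transporters, 9 are peroxins and the last is PPARA, the nuclear receptor that switches many of these genes on. All 37 were found by their gene number among the 12798 features of the count table, and all 37 passed the filter on low counts that left 11064 features for testing.

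The study asked how loss of KEAP1, the adaptor that marks the transcription factor NRF2 for degradation, alters gene expression in hepatic cells. Cells were transduced with a lentiCRISPRv2 vector that carries Cas9 and a single guide RNA, and then selected with puromycin. The sgCtrl group received a guide (sgAAVS168) against the AAVS1 safe-harbour locus, and the sgKeap1-1 and sgKeap1-2 groups received different guides against KEAP1. So Cas9, the vector and the selection are common to all groups. Each group holds 3 libraries of transduced and selected cells, grown in EMEM and collected 48 h after seeding. No source used here says that single clones were picked or that the 3 libraries of a group came from separate transductions, so p-values measure only the spread between these libraries.

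Fatty acids enter the mitochondrial matrix as carnitine esters and are shortened in repeated rounds of dehydrogenation, hydration, a second dehydrogenation and thiolytic cleavage. Electrons from the first dehydrogenation pass through the electron transfer flavoprotein to the respiratory chain. Peroxisomes run a parallel pathway for very long-chain and branched fatty acids with their own enzymes, which are imported from the cytosol by the peroxins. Liver cells depend on both organelles to burn fat during fasting, and PPARA raises the genes of both in that state.

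The libraries held between 3051755 and 4793757 counted reads, with a median of 3809616. QuantSeq reads mark the 3′ end of a transcript, so a value is a tag count per gene, given here as normalized CPM, the tags of a gene relative to all counted tags of its library after scaling of the library sizes, and it is compared only between libraries. In a principal component analysis the first axis, with 43.3% of the variance, placed all 3 sgCtrl libraries on one side and all 6 KEAP1-guide libraries on the other. The second axis, with 21.1%, set sgKeap1-2 replicate 3 apart at a score of 38.9. At its other end stood replicate 2 of all 3 groups, at -19.6, -28.3 and -17.6, with every other library at -1.03 or above. The sgKeap1-2 replicate 3 library was also the lowest of its group for 18 of the 37 genes, and the counts without it are given where they matter.

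KEAP1 RNA is no check of the labels, since 3′ tags need not read the edited site. On the log2 scale KEAP1 stood at -0.40 ± 0.15 (SE) against sgCtrl in the sgKeap1-1 libraries (adjusted p = 0.211) and at 0.02 ± 0.15 in the sgKeap1-2 libraries (adjusted p = 0.952). NQO1, the quinone reductase used as a readout of NRF2 activity, rose from 521 ± 15.5 CPM (SD, n = 3) to 1356 ± 88.4 with sgKeap1-1 and 1738 ± 179 with sgKeap1-2. Of 16 NRF2 target genes tested, 12 rose with sgKeap1-1 and 14 with sgKeap1-2. All 11 hepatocyte markers were measured, but their summed level was 31101 to 38563 CPM in sgCtrl, 17926 to 22488 with sgKeap1-1 and 14738 to 16464 with sgKeap1-2. Albumin, alpha-fetoprotein (AFP) and transferrin (TF) were among 6 markers that fell with sgKeap1-1 and 7 that fell with sgKeap1-2, while transthyretin (TTR) rose with both. Of 7 markers of blood, endothelial and fibroblast cells, 6 are not listed in the count table and COL1A1 was too low to test. The part of the hepatocyte markers in the results below was not tested, and in bulk RNA fewer cells in a given state and less RNA per cell cannot be told apart.

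Of the mitochondrial genes of the module some rose and some fell, and few peroxisomal genes passed the test. A gene was called when edgeR's quasi-likelihood test gave a Benjamini-Hochberg adjusted p under 0.05 over all 11064 features. With sgKeap1-1, 2 of the 17 mitochondrial genes were called, HADH lower and ETFB higher. With a term for the replicate number added (the replicate block), ACAA2 and ACADSB were called as well, beside 977 of all 11064 features. None of the 19 peroxisomal genes was called with this guide. An unadjusted p under 0.05 was found for 2 of them, for 6 of the 17 mitochondrial genes and for 1660 of all 11064 features. With sgKeap1-2, 7 mitochondrial genes were called. CPT1A and ETFB rose, while CPT2, ACADM, HADHB, HADH and ACAA2 fell. In the same comparison 2 peroxisomal genes fell, ECI2 and ACAA1. With the replicate block, ACADSB, ACADVL, EHHADH and SCP2 were called as well with sgKeap1-2. That made 9 mitochondrial and 4 peroxisomal genes, beside 1956 of all 11064 features.

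These counts stand beside the share of all features called in each comparison. With sgKeap1-1, 4.2% of features were called, 1.4% lower and 2.8% higher. With sgKeap1-2, 10.8% were called, 4.85% lower and 5.96% higher. So 2 of 17 mitochondrial genes with sgKeap1-1 compares with 4.2% of all features, and 5 of 17 that fell with sgKeap1-2 compares with 4.85%. For the peroxisomal genes, 2 of 19 called with sgKeap1-2 stands beside 10.8% called in either direction and 4.85% called lower, and a count of 2 is too small to read as a result about the group. Both were among the 10 enzymes and transporters. Both comparisons share the sgCtrl libraries, so a gene that is low or high in those libraries moves in both.

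**Figure D1:**
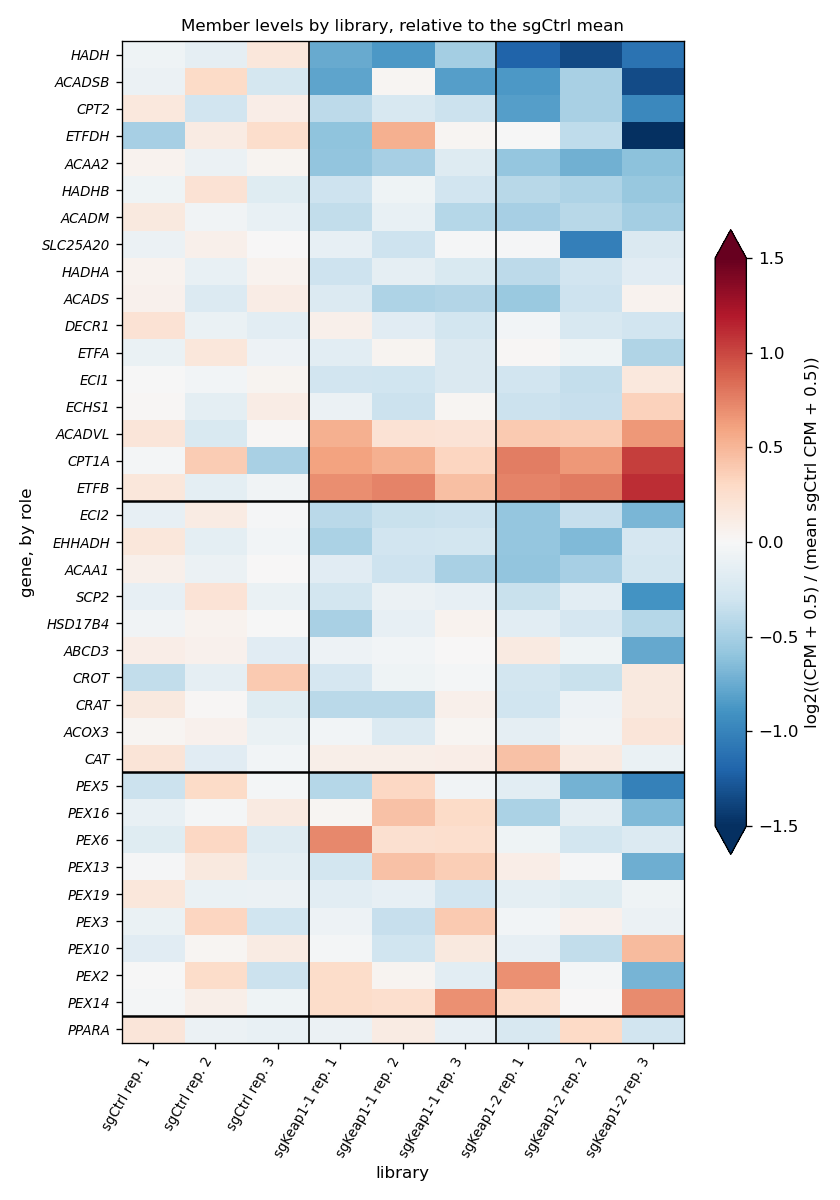
Heat map of the 37 genes (vertical axis, grouped by role with black lines and ordered within a role by the sgKeap1-2 change) in the 9 libraries (horizontal axis). Colour gives log2 of the level over the mean of the 3 sgCtrl libraries, with values past 1.5 in either direction shown at the end colour. HADH is blue in all 6 KEAP1-guide libraries, ETFB is red in all 6, and the peroxins show no common direction.

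The log2 fold changes of the mitochondrial genes had a median of -0.22 with sgKeap1-1, where 13 of 17 were below 0, and of -0.28 with sgKeap1-2, where 14 of 17 were. Over all features the medians were 0.00 and -0.01, and 50.1% and 51.7% of features were below 0. The 10 peroxisomal enzymes and transporters had medians of -0.16 and -0.23, with 9 and 8 genes below 0. The 9 peroxins had medians of 0.08 and -0.14. The median standard error of a single fold change was 0.15 for the mitochondrial genes, 0.17 for the peroxisomal enzymes and 0.24 for the peroxins, which are counted at lower levels.

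Of the genes for entry into mitochondria, CPT1A and CPT2 were called with sgKeap1-2, in opposite directions, and neither call held in all fits that each left out a library. CPT1A, the outer membrane carnitine palmitoyltransferase that sets the rate of entry, stood at 138, 184 and 100 CPM in the sgCtrl libraries. It was at 214, 204 and 176 CPM with sgKeap1-1 and at 240, 221 and 290 CPM with sgKeap1-2. All sgKeap1-2 libraries lay above all sgCtrl libraries, while the lowest sgKeap1-1 library was below the highest sgCtrl library. The log2 fold change was 0.83 ± 0.19 (SE) with sgKeap1-2 (adjusted p = 0.0111) and 0.50 ± 0.19 with sgKeap1-1 (adjusted p = 0.208). CPT1A also had the widest spread of the 37 genes among the sgCtrl libraries, with a coefficient of variation of 29.9% against a median of 11.4%. Without sgCtrl replicate 1 the sgKeap1-2 change was no longer called, at an adjusted p of 0.0515. The sgKeap1-1 value was called without sgCtrl replicate 2, at 0.73 (adjusted p = 0.0343). Without sgCtrl replicate 3 it was 0.30 (adjusted p = 0.581).

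CPT2, the inner membrane enzyme that returns the acyl group to coenzyme A, was the gene of the pair that was called lower. Its level was 26.5, 19.4 and 25.4 CPM in sgCtrl, 18, 20 and 18.9 CPM with sgKeap1-1, and 13.2, 16.8 and 11.9 CPM with sgKeap1-2. The sgKeap1-2 libraries were all below the sgCtrl libraries. CPT2 fell with sgKeap1-2 by 0.77 ± 0.21 on the log2 scale (adjusted p = 0.0285), and its value with sgKeap1-1 was -0.33 ± 0.20 (adjusted p = 0.513). The sgKeap1-2 call was kept in 5 of 9 fits without a library and was lost with only the compared groups (adjusted p = 0.0535). The span of CPT2 overlaps that of the gene CZIB in RefSeq, and whether the reads were counted by strand is not given in the sources used here. SLC25A20, the carnitine-acylcarnitine carrier between these enzymes, ranged from 13.5 to 15.3 CPM in sgCtrl and from 6.83 to 14.2 CPM with sgKeap1-2, and it was not called with either guide.

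Among the acyl-CoA dehydrogenases, which carry out the first oxidation of each round, 1 of 4 was called in the edgeR fit, ACADM with sgKeap1-2. ACADM, the medium-chain enzyme, was at 79.2, 69.4 and 66.6 CPM in sgCtrl, 55.3, 66.4 and 53.4 CPM with sgKeap1-1, and 50.8, 53.7 and 50.2 CPM with sgKeap1-2. Every KEAP1-guide library was below every sgCtrl library, though by a narrow margin for sgKeap1-1 replicate 2. ACADM fell with sgKeap1-2 by 0.48 ± 0.14 on the log2 scale (adjusted p = 0.0421), while with sgKeap1-1 the value was -0.30 ± 0.14 (adjusted p = 0.334). The ACADM call was close to the threshold and was kept in 1 of 9 fits that each left out a library.

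ACADVL, the very long-chain enzyme, was at 92.2 to 123 CPM in sgCtrl, 125 to 157 CPM with sgKeap1-1 and 141 to 171 CPM with sgKeap1-2, so that all KEAP1-guide libraries were above the sgCtrl libraries. Its log2 fold change of 0.49 ± 0.15 with sgKeap1-2 missed the threshold at an adjusted p of 0.0501 and passed it with the replicate block, with either use of DESeq2 and with no filter. ACADVL overlaps the gene DLG4. ACADS, which takes short chains, had values of -0.37 ± 0.17 and -0.25 ± 0.17 with sgKeap1-1 and sgKeap1-2. ACADSB, which acts on short branched acyl groups, had a larger value of -0.85 ± 0.27 with sgKeap1-2 but also a wider spread, and its adjusted p was 0.0775. ACADSB passed the threshold with both guides under the replicate block, and with sgKeap1-2 also with limma-voom, the DESeq2 Wald test and only the compared groups.

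HADH had the lowest adjusted p of the 37 genes in both comparisons and fell with both guides. HADH is the matrix hydroxyacyl-CoA dehydrogenase for short and medium chains, and it lies on chromosome 4. The 250 bases before the first of its 2 starts in RefSeq (GRCh38.p14, chr4:107989639-107989888, plus strand) are shown because no other gene of the module changed as far, with matches to the motifs described below in capitals.
HADH: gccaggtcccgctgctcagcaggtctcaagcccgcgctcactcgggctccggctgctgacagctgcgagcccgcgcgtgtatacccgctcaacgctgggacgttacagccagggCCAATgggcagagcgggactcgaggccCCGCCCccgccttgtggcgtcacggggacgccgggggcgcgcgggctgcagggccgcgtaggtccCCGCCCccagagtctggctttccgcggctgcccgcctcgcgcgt
The window is 74.4% G and C. It holds a CCAAT box 136 bases before the start and GC boxes 109 and 44 bases before it, and no match to the core of the antioxidant response element.

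HADH was at 85.9, 81.7 and 101 CPM in the sgCtrl libraries. It was at 52.9, 49 and 62.6 CPM with sgKeap1-1 and at 38.8, 34.6 and 41.2 CPM with sgKeap1-2. The 3 groups did not overlap, and the sgKeap1-2 libraries were the lowest. HADH fell by 0.71 ± 0.15 on the log2 scale with sgKeap1-1 (adjusted p = 0.0108) and by 1.23 ± 0.15 with sgKeap1-2 (adjusted p = 8.54e-05), which is 0.611 and 0.426 of the sgCtrl level. The sgKeap1-2 change was called in all 9 fits that each left out a library, and the sgKeap1-1 change in 6 of the 9. The direct comparison of the guides gave -0.52 ± 0.15 (unadjusted p = 0.00402, adjusted p = 0.811 over all features), which is no call.

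The trifunctional protein, which handles the later steps for long chains, is built of HADHA and HADHB. HADHB carries its thiolase. It was at 126, 153 and 116 CPM in sgCtrl, 106, 126 and 108 CPM with sgKeap1-1, and 98.5, 95.1 and 88.9 CPM with sgKeap1-2. The sgKeap1-2 libraries were all below sgCtrl, while the sgKeap1-1 libraries overlapped it. HADHB fell with sgKeap1-2 by 0.49 ± 0.14 on the log2 scale (adjusted p = 0.0349), and with sgKeap1-1 it stood at -0.22 ± 0.14 (adjusted p = 0.517). This call was kept in 3 of the 9 fits without a library.

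HADHA, which carries the hydratase and dehydrogenase of the same complex, had values of -0.22 ± 0.11 and -0.28 ± 0.11 with sgKeap1-1 and sgKeap1-2 and was not called, with adjusted p of 0.402 and 0.148. All 6 KEAP1-guide libraries, at 262 to 314 CPM, lay below the sgCtrl libraries, at 320 to 357 CPM. The ratio of HADHB to HADHA tags was 0.327 to 0.479 in sgCtrl, 0.369 to 0.401 with sgKeap1-1 and 0.29 to 0.376 with sgKeap1-2, so the groups overlapped. The pair is transcribed in opposite directions from starts 307 bases apart on chromosome 2. The 250 bases before the HADHB start (GRCh38.p14, chr2:26244689-26244938, plus strand), shown because they lie between the starts of both subunits of a single enzyme, have GC boxes 64 and 28 bases before that start.
HADHB: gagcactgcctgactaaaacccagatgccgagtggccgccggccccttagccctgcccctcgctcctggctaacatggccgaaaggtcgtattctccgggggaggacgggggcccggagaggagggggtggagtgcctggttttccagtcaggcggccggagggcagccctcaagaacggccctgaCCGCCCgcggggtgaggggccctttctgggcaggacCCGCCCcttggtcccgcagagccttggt
The window is 69.2% G and C and holds none of the other motifs searched.

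ACAA2, the thiolase that closes each round for medium and short chains, fell with sgKeap1-2. Its level was 123, 112 and 122 CPM in sgCtrl, 78.7, 83.9 and 104 CPM with sgKeap1-1, and 79.4, 72.2 and 77.3 CPM with sgKeap1-2. All KEAP1-guide libraries were below all sgCtrl libraries. The fall was 0.64 ± 0.13 on the log2 scale with sgKeap1-2 (adjusted p = 0.00613), called in all 9 fits without a library, against a value of -0.43 ± 0.13 with sgKeap1-1 (adjusted p = 0.0998, or 0.0294 with the replicate block). ECHS1, the short-chain hydratase between the dehydrogenases, had values of -0.12 ± 0.18 and -0.07 ± 0.18 with sgKeap1-1 and sgKeap1-2. DECR1 and ECI1, the reductase and isomerase for unsaturated chains, lay between -0.27 and -0.12, and neither was called.

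ETFB, the beta subunit of the electron transfer flavoprotein, rose with both guides. It lies on chromosome 19. The 250 bases before the first of its 2 RefSeq starts (GRCh38.p14, chr19:51366389-51366638, minus strand) are shown because ETFB rose with both guides, and motif matches are again in capitals.
ETFB: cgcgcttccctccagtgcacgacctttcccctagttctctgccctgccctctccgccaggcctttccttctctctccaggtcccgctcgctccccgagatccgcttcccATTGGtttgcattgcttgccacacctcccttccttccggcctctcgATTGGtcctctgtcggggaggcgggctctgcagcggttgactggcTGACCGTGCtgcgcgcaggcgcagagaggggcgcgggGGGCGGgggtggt
The window is 67.2% G and C. A match to the core of the antioxidant response element, TGACCGTGC, stands 50 bases before the start, with CCAAT boxes on the opposite strand 141 and 95 bases before it and a GC box 13 bases before it.

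ETFB was at 1085, 869 and 930 CPM in the sgCtrl libraries. It was at 1555, 1610 and 1318 CPM with sgKeap1-1 and at 1615, 1653 and 2067 CPM with sgKeap1-2. Every KEAP1-guide library was above every sgCtrl library, and sgKeap1-2 replicate 3 was the highest. The log2 fold change was 0.64 ± 0.14 with sgKeap1-1 (adjusted p = 0.0144) and 0.89 ± 0.14 with sgKeap1-2 (adjusted p = 0.000686), or 1.55-fold and 1.85-fold. The sgKeap1-2 call was kept in all 9 fits without a library and the sgKeap1-1 call in 5.

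Its partner ETFA, the alpha subunit, did not pass the test, with values of -0.10 ± 0.14 and -0.15 ± 0.14. The ratio of ETFB to ETFA tags was 2.33 to 3.52 in the sgCtrl libraries, 4.6 to 5.24 with sgKeap1-1 and 4.82 to 8.52 with sgKeap1-2. The sgCtrl libraries did not overlap the others. ETFDH, the membrane oxidoreductase that takes electrons from the flavoprotein, was counted at 0.727 to 9.15 CPM across the 9 libraries, and at these levels a change of its size (-0.72 ± 0.54 with sgKeap1-2) was not detectable. It overlaps the gene PPID.

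**Figure D2:**
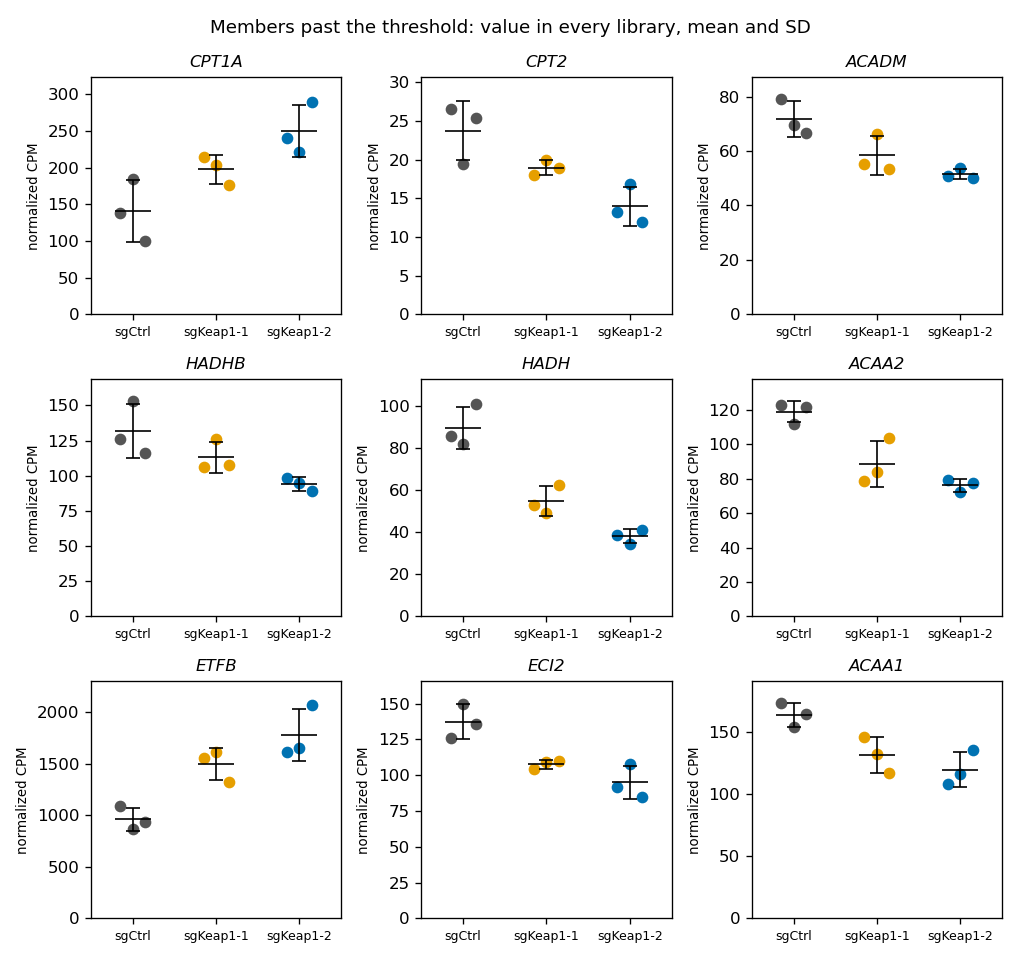
Normalized CPM (vertical axes, from 0) of the 9 genes past the threshold in at least 1 comparison, by group (horizontal axes), with a point for each library and the mean and SD of 3 libraries as lines. CPT1A and ETFB are higher with sgKeap1-2 than with sgCtrl in every library and the other 7 genes are lower in every library.

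Summed over the 17 genes, the mitochondrial tags went from 2992 ± 115 CPM (SD, n = 3) in sgCtrl to 3320 ± 222 with sgKeap1-1 and 3569 ± 326 with sgKeap1-2, of which ETFB alone held 961 ± 111, 1494 ± 155 and 1778 ± 251 CPM. Without ETFB and CPT1A, a subset made by removing the genes seen to rise, the other 15 genes summed to 1890 ± 18.2 CPM in sgCtrl, 1628 ± 72.4 with sgKeap1-1 and 1540 ± 42.5 with sgKeap1-2. A list of 17 nuclear genes for other mitochondrial functions summed to 4135 ± 117, 3975 ± 47.8 and 3966 ± 263 CPM. HSPD1 alone held 1679 ± 50.6, 1485 ± 65.6 and 1511 ± 273 CPM of this, so the sum follows that gene closely. None of these 17 was called with either guide, none had an unadjusted p under 0.05, and their median log2 fold changes were 0.04 and 0.03.

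All 3 libraries of a KEAP1 guide lay below all 3 sgCtrl libraries for 6 mitochondrial genes with sgKeap1-1 and for 7 with sgKeap1-2. The same was true of 10.3% and 13.7% of all features. They lay above for 2 and 3 mitochondrial genes, beside 11.5% and 14.3% of all features. Of the 10 peroxisomal enzymes and transporters, 3 lay below with sgKeap1-1 and 5 with sgKeap1-2, and none lay above with either guide. Of the 9 peroxins, only PEX19 with sgKeap1-1 and PEX16 with sgKeap1-2 lay below and only PEX14 with sgKeap1-1 lay above.

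Of the genes listed as peroxisomal enzymes, 2 were called. The organelle is that of the list used here, since tag counts do not show where a product acts. ECI2, an isomerase that prepares unsaturated chains for oxidation, was at 126, 150 and 136 CPM in sgCtrl, 104, 109 and 110 CPM with sgKeap1-1, and 91.7, 108 and 85 CPM with sgKeap1-2. All KEAP1-guide libraries were below all sgCtrl libraries. ECI2 fell with sgKeap1-2 by 0.53 ± 0.13 on the log2 scale (adjusted p = 0.0179), a call kept in 6 of 9 fits without a library, and its value with sgKeap1-1 was -0.35 ± 0.13 (adjusted p = 0.192).

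ACAA1, the peroxisomal thiolase, was at 173, 154 and 164 CPM in sgCtrl, 146, 132 and 117 CPM with sgKeap1-1, and 108, 116 and 135 CPM with sgKeap1-2. Again no KEAP1-guide library reached the sgCtrl range. ACAA1 fell with sgKeap1-2 by 0.45 ± 0.13 on the log2 scale (adjusted p = 0.0422) and had -0.31 ± 0.13 with sgKeap1-1 (adjusted p = 0.271). The sgKeap1-2 call was kept in 3 of 9 fits without a library.

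The middle steps of the peroxisomal pathway are catalysed by 2 multifunctional enzymes, EHHADH and HSD17B4. EHHADH, which serves dicarboxylic and straight chains, had values of -0.35 ± 0.16 and -0.49 ± 0.17 with sgKeap1-1 and sgKeap1-2 and an adjusted p of 0.0753 with the latter. Under the replicate block EHHADH passed the threshold with sgKeap1-2. All its KEAP1-guide libraries, at 30.2 to 40.5 CPM, lay below the sgCtrl libraries, at 43.6 to 54.3 CPM. HSD17B4, the D-bifunctional protein for branched and very long chains, was at 96.2, 104 and 100 CPM in sgCtrl, 71.4, 91.9 and 104 CPM with sgKeap1-1, and 89.3, 84.1 and 74.1 CPM with sgKeap1-2. Only the sgKeap1-2 libraries were all below sgCtrl, and the log2 fold changes of -0.17 ± 0.15 and -0.28 ± 0.15 were not called.

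Catalase (CAT), which breaks down the hydrogen peroxide made by the peroxisomal oxidases, was at 110, 85.4 and 93.4 CPM in sgCtrl, 102, 102 and 103 CPM with sgKeap1-1, and 131, 106 and 90.1 CPM with sgKeap1-2. The groups overlapped, and the log2 fold changes of 0.09 ± 0.15 and 0.18 ± 0.15 had adjusted p of 0.88 and 0.543. SCP2, which holds the thiolase for branched chains, had -0.16 ± 0.18 and -0.43 ± 0.18, with an adjusted p of 0.16 for the second. Under the replicate block SCP2 passed the threshold with sgKeap1-2. ACOX3, an oxidase for branched acyl-CoA, had -0.07 ± 0.18 and 0.00 ± 0.18.

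None of the genes that move substrates into or out of the peroxisome was called. ABCD3, an ATP-driven carrier of branched and dicarboxylic acyl groups, had log2 fold changes of -0.03 ± 0.19 and -0.19 ± 0.19 with sgKeap1-1 and sgKeap1-2. In sgKeap1-2 replicate 3 it was at 57.7 CPM, against 87 to 108 CPM in the other 8 libraries. CRAT and CROT, which make acetyl-carnitine and medium-chain acyl-carnitines, lay between -0.23 and -0.06, and neither was called. CROT overlaps the gene ABCB4. The 10 enzymes and transporters together summed to 778 ± 21.7 CPM in sgCtrl, 684 ± 20.2 with sgKeap1-1 and 641 ± 42.3 with sgKeap1-2. No KEAP1-guide library, with 592 to 702 CPM, reached the lowest sgCtrl library at 753 CPM. Much of the difference lay in the 2 called genes. ACAA1 held 164, 132 and 120 CPM of these mean sums and ECI2 held 137, 108 and 95 CPM. The libraries of ACOX3, CAT, CRAT, CROT and ABCD3 overlapped sgCtrl with both guides, so the sum does not show a fall of the whole group.

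No peroxin was called with either guide, and none had an unadjusted p under 0.05 against sgCtrl. PEX5, the receptor that carries matrix enzymes into the peroxisome, was at 13.2, 20.4 and 16.2 CPM in sgCtrl, 12.2, 20.7 and 16 CPM with sgKeap1-1, and 14.8, 10 and 8 CPM with sgKeap1-2. The groups overlapped, and its log2 fold changes were -0.01 ± 0.27 (adjusted p = 0.992) and -0.61 ± 0.29 (adjusted p = 0.215). The other peroxins lay between -0.19 and 0.47 with sgKeap1-1 and between -0.43 and 0.37 with sgKeap1-2. The upper ends were set by PEX6, an ATPase that recycles the receptor, at 0.47 ± 0.32 with sgKeap1-1, and by PEX14, the docking protein, at 0.37 ± 0.23 with sgKeap1-2. PEX6 had only 14 to 32 counts per library, and it overlaps the genes GNMT and CNPY3-GNMT. PEX10 overlaps RER1 and PEX13 overlaps PUS10. PEX3, PEX16 and PEX19, which insert membrane proteins, and PEX2, PEX10 and PEX13, which form the ubiquitin ligase and the import pore, all had values smaller than 0.5 in size. The 9 peroxins summed to 224 ± 11.1, 229 ± 14.8 and 215 ± 17.5 CPM in the 3 groups, and most are counted at under 35 CPM, so small changes were not detectable.

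PPARA did not differ between the groups by more than its error. It was at 55.4, 45.9 and 44.9 CPM in sgCtrl, 46, 53.2 and 44.7 CPM with sgKeap1-1, and 41.3, 60 and 40 CPM with sgKeap1-2. The groups overlapped. Its log2 fold changes were -0.02 ± 0.18 and -0.05 ± 0.18, with adjusted p of 0.976 and 0.912.

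**Figure D3:**
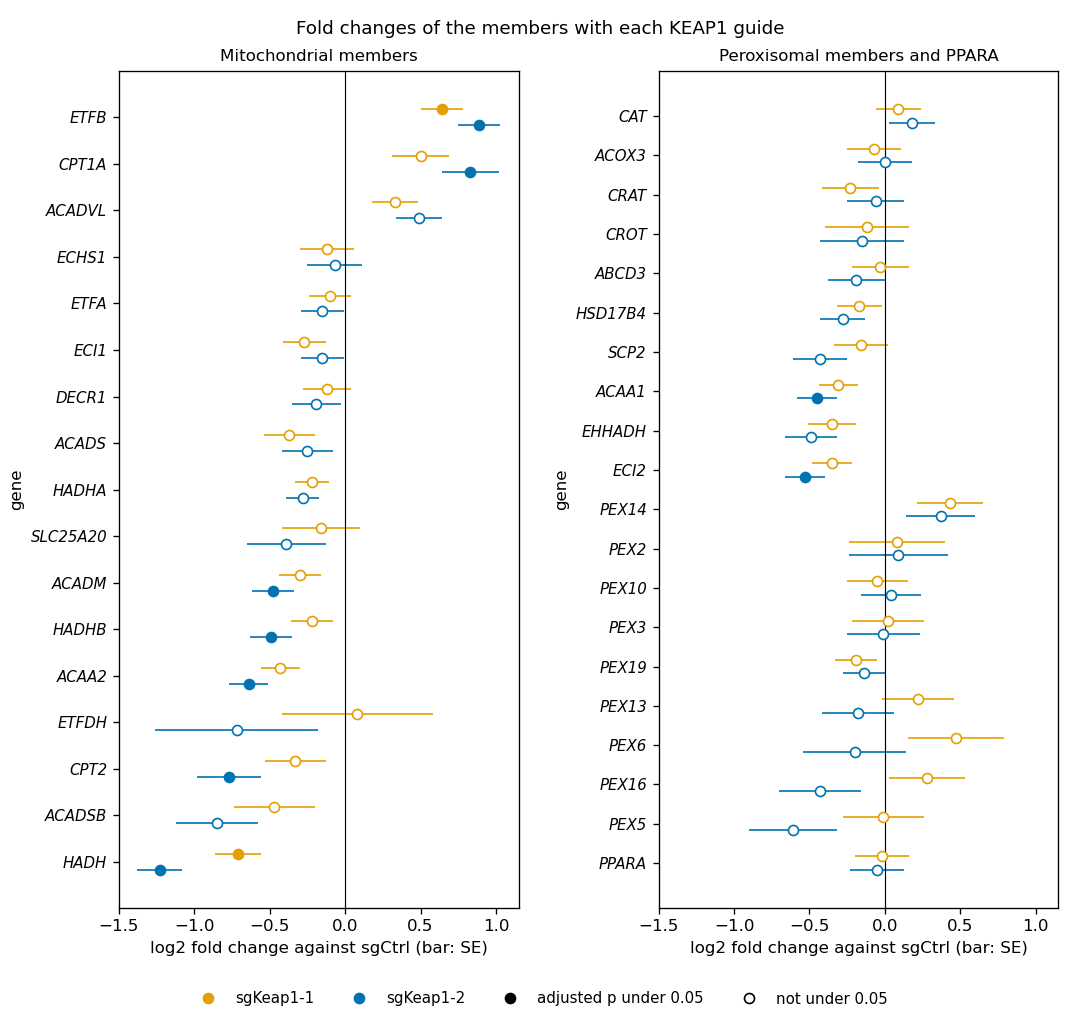
Log2 fold change against sgCtrl (horizontal axes, bar for the SE) of each gene (vertical axes) with sgKeap1-1 (orange) and sgKeap1-2 (blue), filled where the adjusted p is under 0.05. Mitochondrial genes are on the left, and the peroxisomal enzymes, the peroxins and PPARA follow from top to bottom on the right. HADH lies farthest to the left at -1.23 and ETFB farthest to the right at 0.89, both with sgKeap1-2.

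Other genes of the same pathways were taken from lists that do not hold the 37. Of 31 further mitochondrial genes of fatty acid and ketone metabolism, 27 were tested. With sgKeap1-1, 2 fell and none rose, and with sgKeap1-2, 4 fell and none rose, with medians of -0.08 and -0.31. Over all features 4.2% and 10.8% were called, 1.4% and 4.85% lower. ACSM3, a medium-chain acyl-CoA synthetase, fell from 187 ± 30.6 CPM to 107 ± 8.99 and 83.8 ± 3.11 (adjusted p = 0.00283 and 7.67e-05). ACOT2, a thioesterase that releases free fatty acid in the matrix, fell from 76.7 ± 15.3 CPM to 46.5 ± 7.45 and 48 ± 9.36 (adjusted p = 0.0469 and 0.0325). These calls were lost in 5 and 4 of the 9 fits without a library, and the sgKeap1-1 call also with limma-voom (adjusted p = 0.0625) and with a minimum of 10 counts per library (0.0605). ECHDC2 fell with sgKeap1-2 by 0.63 ± 0.17 on the log2 scale (adjusted p = 0.0325), a call lost in 5 of the 9 fits.

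OXCT1, which starts the breakdown of ketone bodies, was a low gene that fell with sgKeap1-2. It was at 4.5, 4.76 and 4.18 CPM in sgCtrl, 2.68, 2.4 and 2.37 CPM with sgKeap1-1, and 1.54, 0 and 0.727 CPM with sgKeap1-2. The 3 groups did not overlap. The fitted value with sgKeap1-2 was -2.61 ± 0.62 on the log2 scale (adjusted p = 0.0134) and includes a library with no read. It became -1.99 without that library (sgKeap1-2 replicate 2) and -3.51 without sgKeap1-2 replicate 1. The call was kept in all 9 fits without a library, with an adjusted p of at most 0.0464. With sgKeap1-1 the value was -0.84 ± 0.49 (adjusted p = 0.479).

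Of 46 further peroxisomal genes, 37 were tested. With sgKeap1-1, 1 was called, lower, beside 4.2% of all features called and 1.4% called lower. With sgKeap1-2, 4 were called, all lower, beside 10.8% called and 4.85% called lower. PECR, a reductase of unsaturated acyl-CoA, fell with both guides, from 77.1 ± 11.6 CPM to 50.1 ± 3.79 and 33.4 ± 2.9 (adjusted p = 0.0297 and 0.000122). Its sgKeap1-1 call was lost in 5 of 9 fits that each left out a library. PHYH, the hydroxylase that opens alpha-oxidation of phytanic acid, fell with sgKeap1-2 by 1.16 ± 0.20 on the log2 scale (adjusted p = 0.00164), and its value with sgKeap1-1 was -0.65 (adjusted p = 0.0884, or 0.0118 with the replicate block). PIPOX, an oxidase of pipecolic acid and sarcosine, fell with sgKeap1-2 by 0.83 ± 0.14 (adjusted p = 0.00135), and its value with sgKeap1-1 was -0.48 (adjusted p = 0.0727, or 0.0205 with the replicate block). PEX11A, which promotes peroxisome division, fell with sgKeap1-2 by 0.93 ± 0.26 (adjusted p = 0.0333), a call lost in 4 of the 9 fits without a library and with only the compared groups (adjusted p = 0.0593). The medians of the 37 were -0.05 and -0.11.

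Of 22 listed partners and targets of PPARA, 18 were tested. With sgKeap1-1, 3 fell and none rose, beside 1.4% of all features lower and 2.8% higher, and with sgKeap1-2, 3 fell and 2 rose, beside 4.85% lower and 5.96% higher. FABP1, the liver fatty acid-binding protein and a classical target, was at 1254, 1254 and 1074 CPM in sgCtrl, 483, 766 and 521 CPM with sgKeap1-1, and 239, 271 and 294 CPM with sgKeap1-2. The 3 groups did not overlap. It fell by 1.02 ± 0.16 on the log2 scale with sgKeap1-1 (adjusted p = 0.0017) and by 2.16 ± 0.17 with sgKeap1-2 (adjusted p = 1.76e-06). CREB3L3, a hepatic transcription factor that works with PPARA, fell by 1.02 ± 0.23 and 1.29 ± 0.24 (adjusted p = 0.0198 and 0.00245). RXRA, the DNA-binding partner of PPARA, fell by 0.57 ± 0.13 and 0.48 ± 0.13 (adjusted p = 0.0197 and 0.0286), and these calls were lost in 5 and 4 of the 9 fits without a library. The sgKeap1-2 call of RXRA was also lost with only the compared groups (adjusted p = 0.0537), and the sgKeap1-1 call of CREB3L3 in 4 of the 9 fits.

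In the opposite direction, 2 genes of this list were called higher with sgKeap1-2. CIDEC, a lipid droplet protein, rose from 6.99 ± 0.787 to 19.1 ± 5.85 CPM (adjusted p = 0.00532). With sgKeap1-1 CIDEC was at 14.7 ± 3.63 CPM, above sgCtrl in all 3 libraries, with an adjusted p of 0.0628 that passed the threshold with the replicate block (0.0108), the DESeq2 Wald test (0.0385) and only the compared groups (0.0377). PPARGC1B, a coactivator of mitochondrial genes, rose from 1.15 ± 0.942 to 5.48 ± 2.46 CPM (adjusted p = 0.0172), at a level of few reads per library. The sgCtrl libraries were at 0.53, 0.681 and 2.23 CPM, the call was lost in 3 of the 9 fits without a library, and the log2 fold change of 2.23 became 3.15 without sgCtrl replicate 3. The medians of the list were -0.12 and -0.19.

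**Figure D4:**
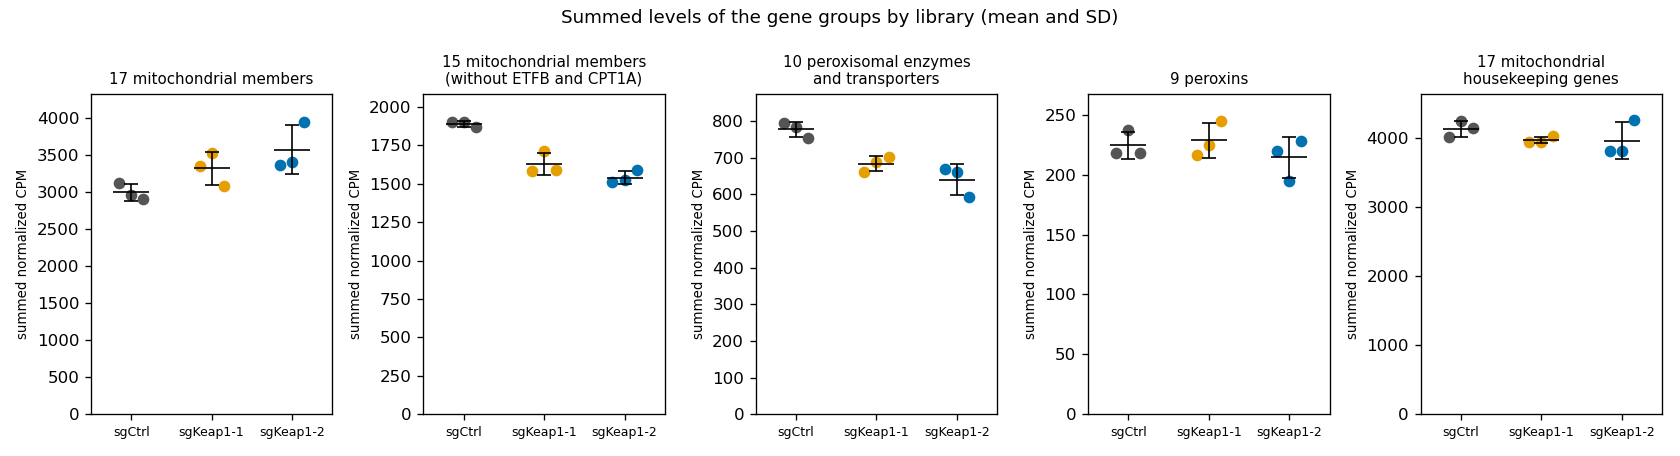
Summed normalized CPM (vertical axes, from 0) of 5 gene groups by library (points) with the mean and SD of 3 libraries (lines). The sum of the 10 peroxisomal enzymes and transporters is lower in all 6 KEAP1-guide libraries than in any sgCtrl library, and those of the 9 peroxins overlap. Much of the difference in the sum of the 10 lies in ACAA1 and ECI2, which were called with sgKeap1-2. The 15 mitochondrial genes leave out ETFB and CPT1A, which were removed after they were seen to rise, so their lower sum is a description only, and the mean sum of all 17 is higher with both guides.

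The guides were also compared directly, since more of the 37 genes were called with sgKeap1-2 than with sgKeap1-1. None of the 37 was called in this comparison, 2 had an unadjusted p under 0.05 (HADH and PEX16), and limma-voom and DESeq2 also called none. Over all features 0.0181% were called, which is 2 of 11064. The median log2 difference of sgKeap1-2 against sgKeap1-1 was -0.08 for the mitochondrial genes and -0.11 for the peroxisomal genes, where 11 of 17 and 13 of 19 were below 0. So the different numbers of calls are no test of a difference between the guides. Among the listed genes outside the module FABP1 alone was called, lower with sgKeap1-2 by a log2 difference of -1.14 (adjusted p = 0.0377). This call was lost in 8 of the 9 fits without a library, with limma-voom (adjusted p = 0.0805), with a minimum of 10 counts per library (0.0522) and with only the compared groups (0.189).

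Without sgKeap1-2 replicate 3, the library that stood apart, 4 mitochondrial genes were called with sgKeap1-2 (HADH, ACAA2, ETFB and CPT1A) and 3 peroxisomal genes (ECI2, ACAA1 and EHHADH). CPT2, ACADM and HADHB were then at log2 fold changes of -0.66, -0.46 and -0.45, with adjusted p of 0.0782, 0.0683 and 0.0631. Without sgCtrl replicate 1 the mitochondrial count with sgKeap1-2 was 3, and without sgKeap1-2 replicate 1 it was 4. HADH, ACAA2 and ETFB were the genes called with sgKeap1-2 whichever library was left out.

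RefSeq promoter windows were at hand for 30 of the 37 genes, 41 windows in all because some genes have several starts. The 250 bases before each start were searched on both strands for 5 motifs, whose matches may share bases. TGACNNNGC, the core of the antioxidant response element that NRF2 binds with small MAF proteins, was present in 6 of the 41 windows, those of ETFB, ETFA, ACOX3, PEX5, PEX10 and PEX16, and in 10.9% of all 35116 windows of this length. AGGTCA, a motif of nuclear receptors such as PPARA and RXRA, was present in none of the 41 and in 12.1% of all windows. The E-box CACGTG, bound by TFEB and related factors, was present only at PEX10, beside 6.34% of all windows. GGGCGG, the GC box, was in 33 of the 41 windows and in 42.6% of all windows, and CCAAT in 10 of 41 and in 32%. Of the 6 genes with the TGACNNNGC letters ETFB alone was called, and a match or its absence in this short window says nothing about binding.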

How the data were processed

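Total RNA from 9 HepG2 libraries was made into QuantSeq 3′ libraries. The authors deposited a table of raw read counts per feature, made per the submitters' processing notes with FastQC 0.72, cutadapt 1.16, STAR 2.7.5b, featureCounts 1.6.3 and limma 3.40.6. Those notes list the build hg38 and the methods GRCh37, and strand setting, annotation and low-count filter are not given in the sources used here. The 1052 features with no gene number, with 1.34% of reads, were left out, and 0 further columns of values were found. Gene numbers were matched to RefSeq symbols (11740 of 11746).

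Counts were fitted with edgeR 4.0.16 in R 4.3.3 (filterByExpr with a minimum count of 10, TMM scaling, quasi-likelihood test over all 9 libraries with group as the only term, Benjamini-Hochberg adjustment over 11064 features, threshold 0.05). A prior count of 2 was used for the principal components. The script was tested on simulated data. Alternatives were a replicate block, DESeq2 1.42.0 size factors and Wald test, no scaling, limma-voom (limma 3.58.1), no filter, a minimum of 10 counts per library, only the compared groups, each library left out, and, added after seeing the data, unnumbered features kept. Replicate pairs of a group differed by 4.63 to 24.1 times the sampling noise (chi-square per degree of freedom), so none was treated as a duplicate of another, which does not show separate cultures. Members past the threshold, and PPARA, CPT1A, ACADM, CAT, HSD17B4 and PEX5 whatever their test, were given in every library. Of each further list, at most the 4 largest changes in each direction past the threshold were named. The members and lists were chosen with earlier results of these data known. Promoter windows and gene spans came from RefSeq GRCh38.p14. Sums and ratios carry no test.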

Additional observations from a re-analysis of the deposited data

Results flagged for a closer look

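FABP1, the liver fatty acid-binding protein, differed between the KEAP1 guides when sgKeap1-2 was compared directly with sgKeap1-1. The log2 difference was -1.14 (adjusted p = 0.0377 by edgeR's quasi-likelihood test), with 239 to 294 CPM in the sgKeap1-2 libraries and 483 to 766 CPM in the sgKeap1-1 libraries, all 3 of which were higher. Over the other settings the adjusted p ranged from 2.52e-06 to 0.189 with all libraries and reached 0.251 with a library left out, and the call was lost with limma-voom (0.0805), with at least 10 counts in every library (0.0522), with only the compared groups (0.189) and in 8 of the 9 fits that left out a library, all but the fit without sgKeap1-1 replicate 1. The difference itself stayed between -1.26 and -0.90.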

How the results depend on the processing

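Values of single genes were followed through the alternatives for 58 results, and none of these changed sign where it was called. Of their values under alternatives, 920 stayed on the same side of the threshold, 95 lost a call, 15 gained one and 10 changed sign without a call. ACADVL, ACADSB, EHHADH and SCP2, which gained calls in some settings, are not in this tally. With the replicate block, 977 features were called with sgKeap1-1, 1956 with sgKeap1-2 and 26 between the guides, with 4 mitochondrial genes for sgKeap1-1 (ACAA2 and ACADSB added), 9 for sgKeap1-2 (ACADSB and ACADVL added) and 4 peroxisomal genes for sgKeap1-2 (EHHADH and SCP2 added). Same-numbered libraries share a prefix in their descriptions whose meaning is not given. Their deviations correlated at -0.01 to 0.52, against -0.40 to 0.27 for differently numbered libraries of different groups. Not every library correlated best with its own number. Between sgCtrl and sgKeap1-1 all 3 same-numbered pairs were over 0.1, at 0.23, 0.38 and 0.16. Between sgCtrl and sgKeap1-2 the same-numbered pairs were at -0.01, 0.34 and 0.20, with the lowest value for replicate 1. For both comparisons the blocked calls therefore stand beside the main ones. The main fit did not use the numbers, and these values do not settle whether they mark pairs. For sgKeap1-2, 1 peroxisomal gene was called both with at least 10 counts in every library and with only the compared groups. Between the guides, limma-voom, the 10-count filter and the compared groups alone called 0 features (562 at an unadjusted p under 0.05 in edgeR) and the DESeq2 Wald test 19. With each library left out, calls ranged from 278 to 688 features with sgKeap1-1, 764 to 1291 with sgKeap1-2 and 0 to 2 between the guides. Mitochondrial genes ranged from 0 to 3 and from 3 to 9 (0 with sgKeap1-1 without sgCtrl replicate 3, sgKeap1-1 replicate 1 or 2), and peroxisomal genes from 0 to 0 and from 0 to 3 (0 with sgKeap1-2 without sgCtrl replicate 2 or 3 or sgKeap1-2 replicate 1). ACADM and ACAA1 were lost with the 10-count filter (adjusted p = 0.051 and 0.0519), and these with CPT2 and HADHB with only the compared groups (0.0568, 0.0581, 0.0535 and 0.0552). The causes were not tested.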
